A study of Mus musculus with 4 samples.

Results

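Collagens are the main structural proteins of the extracellular matrix, and each is built from chains encoded by separate genes. The genes described here are the collagen chain genes, taken as every symbol that begins with Col and gives a type number, the letter a and a chain number. Of 44 such symbols among 55405 features, 42 had at least 50 UMIs (unique molecular identifiers, 1 for each captured RNA molecule) over all libraries and are the members. Col19a1 with 60 UMIs and Col22a1 with 71 lay just inside that limit, and Col10a1 with 43 and Col28a1 with 28 lay just outside. The 42 members held 2039539 UMIs, 0.311% of all 655842278, and the 5 most abundant (Col3a1, Col4a1, Col1a1, Col1a2 and Col4a2) held 68.27% of these.

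Single-cell RNA libraries were made from dissociated heart ventricles of mouse embryos at E12.5, with 2 libraries per genotype. The 2 Gata4_het libraries came from Gata4fl/+ embryos, with 1 floxed Gata4 allele, and the 2 Gata4_KO libraries came from Gata4fl/fl embryos. All embryos, the controls included, also carried Cdh5(Pac)-CreER, a tamoxifen-dependent Cre driven from an endothelial promoter, and the Rosa26 mTmG reporter, which switches a cell and its descendants from a red to a green fluorescent protein after Cre has acted. Tamoxifen was given at E9.5, so the deletion was directed at endothelial and endocardial cells and their later descendants, and the comparison asks what loss of the transcription factor Gata4 there does to gene expression. The labels do not state whether each library came from 1 embryo or from several pooled. Xist, a transcript of female cells, and the Y-linked Ddx3y were both found in het libraries 1 and 2 and KO library 1. These libraries therefore held cells of both sexes, while KO library 2 had 0 Ddx3y UMIs in endothelial-like cells. The number of embryos per library is unknown, so p-values measure only the spread between these libraries, which may be technical.

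Fibrillar collagens (types I, II, III, V, XI and relatives) form the tensile fibrils of connective tissue. Type IV chains form the sheet of the basement membrane on which endothelium, epicardium and muscle cells sit, and multiplexins such as Col18a1 are attached to that sheet. FACITs (collagens such as types IX, XII and XIV) decorate fibrils, type VI forms beaded filaments around cells, and the transmembrane collagens (types XIII, XVII, XXIII and XXV) stay in the cell surface. In the embryonic heart, endocardial cells of the valve region become mesenchyme that fills the endocardial cushions, the collagen-rich forerunners of the valves, and Gata4 is known to be needed for that step.

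The libraries held 137890971 to 190207638 UMIs. After removal of low-quality barcodes and called doublets, 22474 and 9938 cells were kept in het libraries 1 and 2, and 13522 and 6785 in KO libraries 1 and 2. Het library 1 stood apart: its median was 4165 UMIs per cell against 7087 to 14048 in the others, and 13485 of its cells fell in clusters that were left unnamed, against 349, 734 and 137 in the others. All but 1 of those clusters had cardiomyocyte markers at 1% of UMIs or more, and the largest, with 3413 cells led by endothelial genes, drew 3246 of them from het library 1, so the endothelial-like class leaves out many cells of that library. Pairs of libraries shared 23 to 103 cell barcodes. Cells were clustered without the collagen genes and named from marker lists. The endothelial-like class held 1512, 1498, 1369 and 791 cells in the order het 1, het 2, KO 1, KO 2, and the mesenchymal-like class held 1026, 2018, 1602 and 1133. The endothelial-like class had a cluster led by Emcn, with Npr3 among its top 10 genes (called endocardial-like below), a cluster led by Wnt4, a vascular-like cluster and a low-UMI cluster. All 11 endothelial markers had UMIs in each of these clusters, but also in erythroid-like cells, so their presence does not separate the types. Of UMIs other than globin they made up 0.559% to 0.591% in the endocardial-like cluster and 0.171% to 0.242% in the low-UMI cluster. In erythroid-like cells they made up 0.00781% to 0.0251%. Cardiomyocyte markers made up 0.239% to 0.8035% in the low-UMI cluster, more than the endothelial markers in each library. Mesenchymal-like cells divided into cushion and fibroblast clusters.

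Gata4 itself did not check the labels. Its normalised level in endothelial-like cells was 148.5 and 126.8 CPM (UMI counts scaled to a common library size, here with TMM normalisation) in the het libraries and 202.1 and 193.5 in the KO libraries, so both libraries labelled KO were higher. The 3′ tags counted here can lie outside the deleted part of the gene, and the feature named FloxGata4 had 0 UMIs in endothelial-like cells of every library. The deletion in the KO libraries is therefore taken from the labels alone.

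Levels across cell types are given as CPM, the usual scaled count, of a library's UMIs in that type after globin transcripts were left out, and each UMI is 1 captured 3′ end, so no length term enters. They are descriptions with no test. Erythroid-like cells, which are not a source of collagen, give a rough guide to free RNA in a droplet. Globin held 11687440 of 15357352 UMIs in these cells of het library 1. Leaving it out raises their CPM, so a value under theirs need not be background. All members together reached 12570 ± 2488 CPM (SD, n = 4 libraries) in epicardial-like cells, 9837 ± 715.6 in fibroblast-like, 7852 ± 1089 in cushion mesenchyme-like and 7144 ± 1137 in endocardial-like cells. The level was 4734 ± 1081 CPM in vascular-like cells, 4377 ± 693.8 in the Wnt4 cluster and 608.8 ± 180.2 in cardiomyocyte-like cells, and erythroid-like cells had 284.5 ± 153.2. Neighbours in this order overlapped across libraries at every step but that from the Wnt4 cluster to cardiomyocyte-like cells. Epicardial-like cells had the highest mean for 17 of the 42 members, cushion mesenchyme-like cells for 9, endocardial-like for 7, fibroblast-like for 6, the Wnt4 cluster for 2 and vascular-like cells for 1. For 20 of the 42 the leading type's 4 libraries all lay above those of the second type, and 8 of these 20 led in epicardial-like cells.

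**Figure D1:**
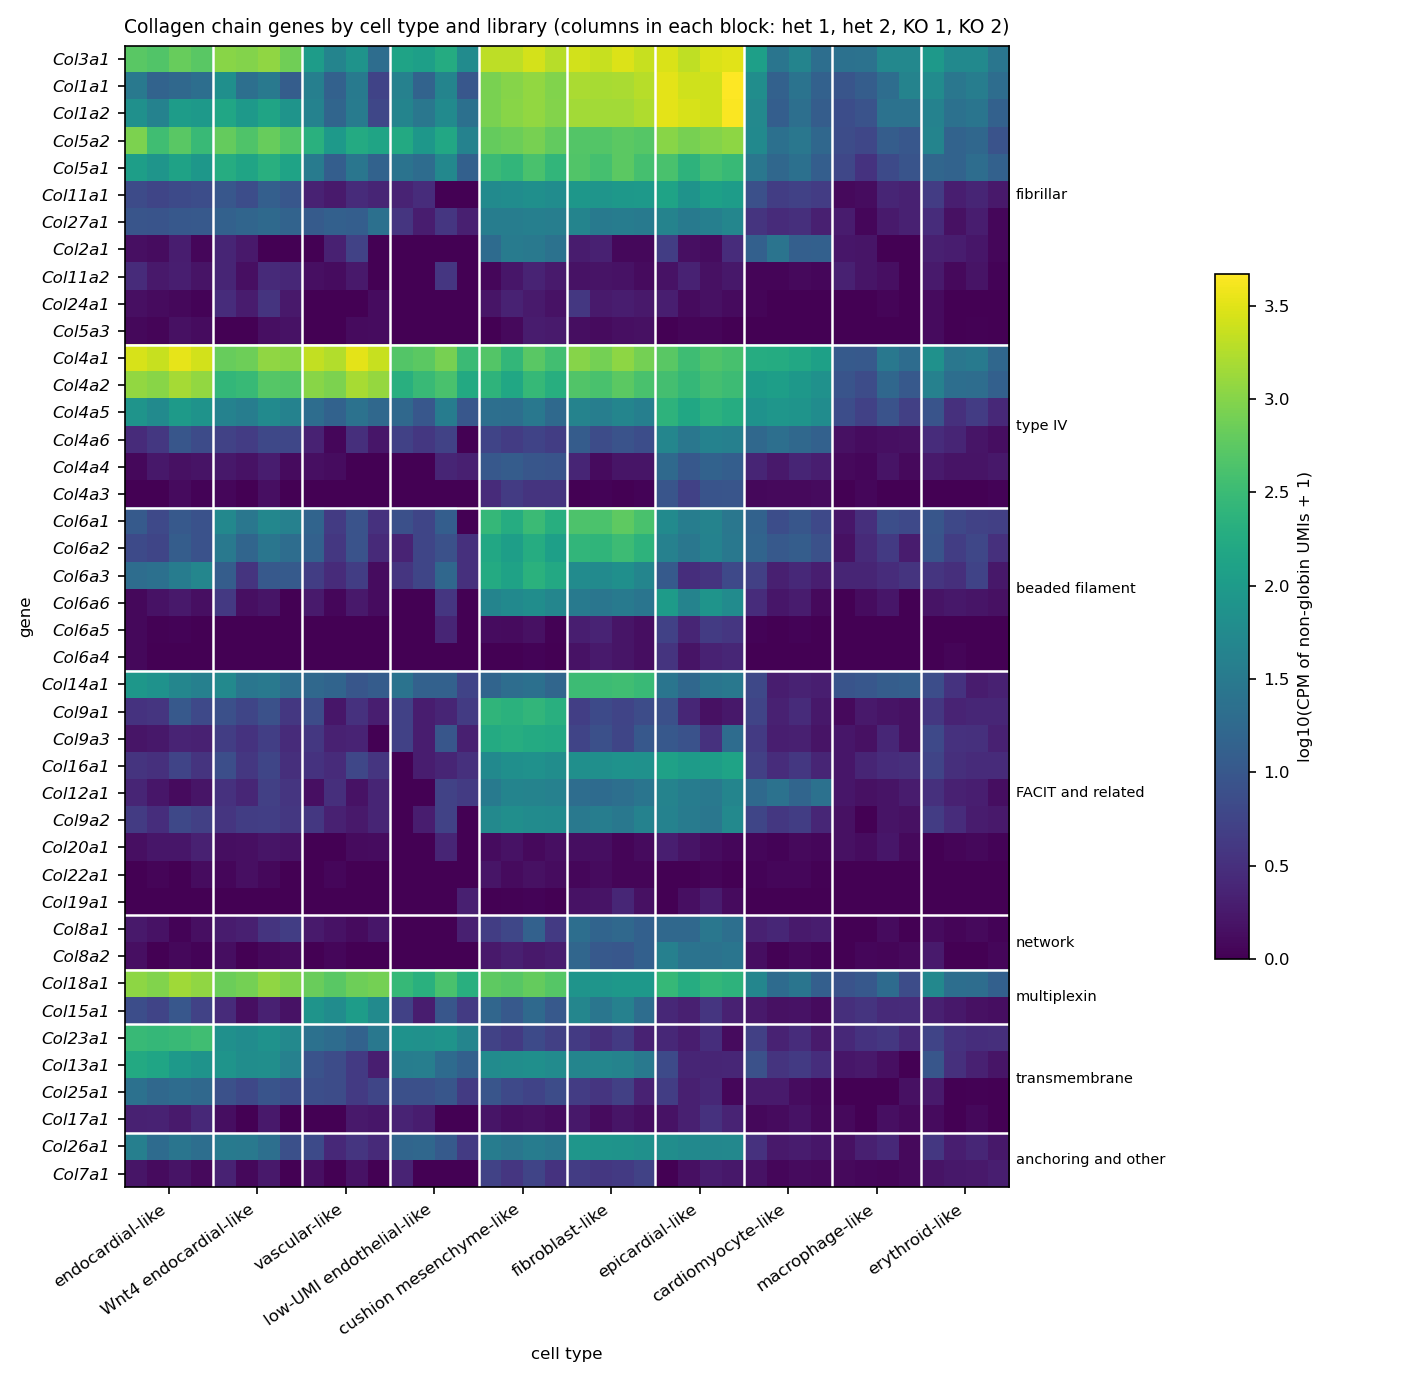
Level of each of the 42 collagen chain genes (rows, grouped by structural class) in 10 cell types, with the 4 libraries side by side in each type (het 1, het 2, KO 1, KO 2), as CPM without globin transcripts on a log color scale. Col9a1 and Col9a3 are high in the cushion columns, Col23a1 in the endocardial-like columns, Col15a1 in the vascular-like columns, and many fibrillar chains in the epicardial-like and fibroblast-like columns.

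The fibrillar chains of types I and III were most abundant outside the endothelium. Col1a1, which encodes a chain of type I collagen, had levels of 3351, 2562, 2506 and 4686 CPM in epicardial-like cells of het 1, het 2, KO 1 and KO 2. In fibroblast-like cells it had 1586, 1561, 1624 and 1914 CPM, and in cushion cells 864, 999, 1174 and 957. These 3 types did not overlap. Col3a1, the chain of type III collagen, was more even, with 2932, 2053, 2903 and 3173 CPM in epicardial-like cells, 2658, 2336, 2989 and 2306 in fibroblast-like cells and 2015, 1992, 2673 and 1886 in cushion cells. The 3 ranges overlapped. Col5a2, a type V chain that helps fibrils to form, ranged from 821 to 1131 CPM in epicardial-like cells, and Col5a1, its partner, ranged from 388 to 565 CPM in fibroblast-like cells. Col2a1, the cartilage fibril chain, had 18.2, 32.6, 29.4 and 23.3 CPM in cushion cells and 12.4, 25.1, 11.8 and 12.51 in cardiomyocyte-like cells, and its mean in fibroblast-like cells was 0.612.

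Within the endocardium, Col3a1 was present with little Col1a1. Col3a1 had levels of 541, 469, 662 and 539.5 CPM in the endocardial-like cluster and 1052, 984, 1163 and 743.6 in the Wnt4 cluster. Col1a1 in the endocardial-like cluster had 29.6, 13.7, 16.5 and 20.5 CPM. The erythroid-like levels, which are raised by leaving out globin, were 57.8, 27.1, 34.4 and 19.4, higher in 3 of the 4 libraries. Whether the Col1a1 level in the endocardial-like cluster is background was not tested. Col1a2, the partner chain that joins Col1a1 in the type I molecule, had 68.3, 41.3, 104.5 and 91.5 CPM there, above the 42.0, 22.7, 25.5 and 12.7 of erythroid-like cells in each library. The ratio of Col1a1 to Col1a2 UMIs was therefore 0.158 to 0.433 in the endocardial-like cluster and 0.142 to 0.4495 in the Wnt4 cluster. It was 0.867 to 0.951 in vascular-like cells, 0.944 to 1.002 in cushion cells, 1.07 to 1.13 in fibroblast-like cells and 1.197 to 1.53 in erythroid-like cells, and the first 2 types overlapped none of the others except the low-UMI cluster, where it ran from 0.421 to 0.909.

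**Figure D2:**
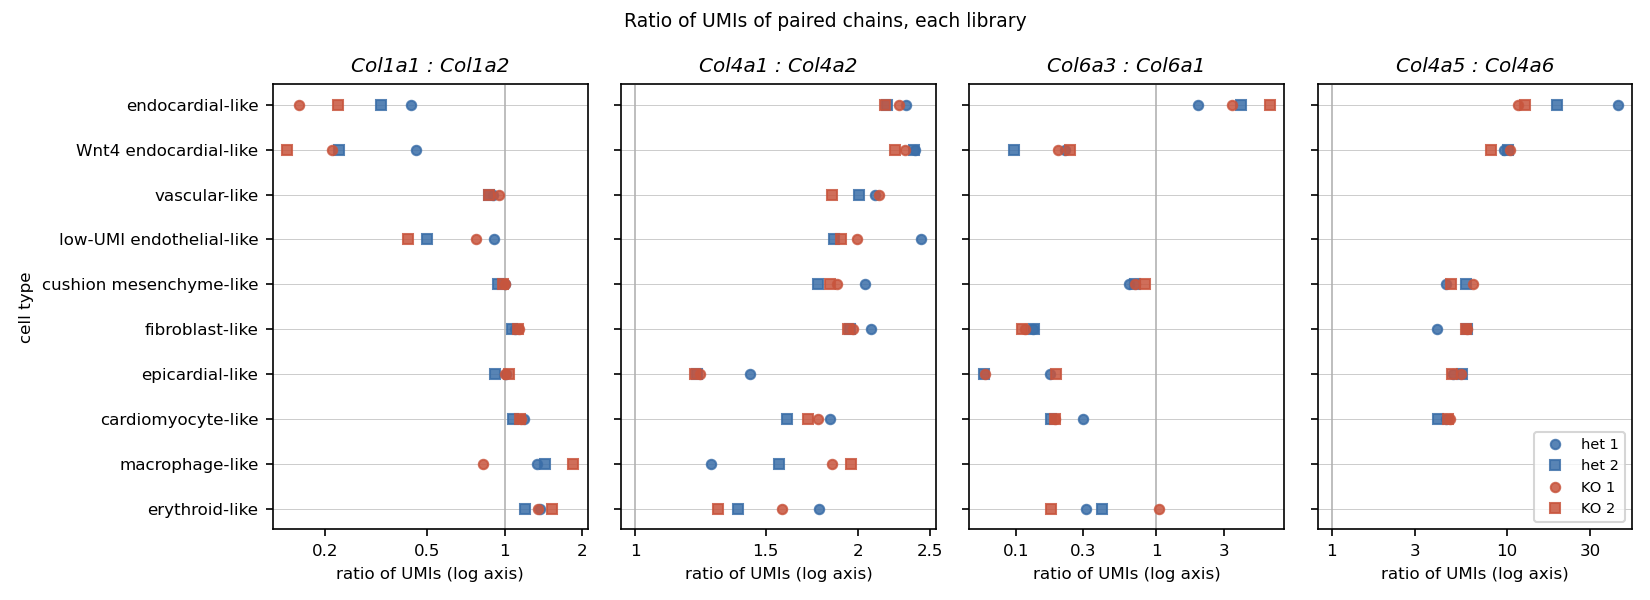
Ratios of UMI counts of partner chains (log axes) by cell type, with a point for each of the 4 libraries. The Col1a1 to Col1a2 ratio lies below 0.4495 in the endocardial-like and Wnt4 clusters and near 1 in cushion, fibroblast-like and epicardial-like cells, and the Col6a3 to Col6a1 ratio is at least 1.98 in the endocardial-like cluster, where Col6a1 is near its erythroid-like level.

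The basement membrane chains led in endothelium and epicardium. Col4a1, with Col4a2 the chain found in nearly all basement membranes, had levels of 2803, 2267, 3422 and 2594 CPM in the endocardial-like cluster, 2190, 1777, 3321 and 2295 in vascular-like cells and 646, 713, 1150 and 1046 in the Wnt4 cluster. The endocardial-like and vascular-like ranges overlapped, and every Wnt4 value lay below both. Col4a2 had 1207, 1038, 1508 and 1196 CPM in the endocardial-like cluster, and the ratio of Col4a1 to Col4a2 UMIs there was 2.17 to 2.32, against 1.203 to 1.43 in epicardial-like cells. The chains that are less widely used led in epicardial-like cells. Col4a5 had 235.9, 150.8, 227.0 and 184.3 CPM there against 77.3, 56.6, 98.3 and 75.9 in the endocardial-like cluster. Col4a6 had 48.0, 27.2, 41.3 and 38.1 CPM in epicardial-like cells and 16.2, 20.8, 16.3 and 12.9 in cardiomyocyte-like cells. Col4a3 had 8.35, 4.09, 7.85 and 8.14 CPM in epicardial-like cells, and Col4a4 had 17.2, 9.28, 13.2 and 11.6 there and 9.09, 10.6, 8.59 and 8.01 in cushion cells. Col18a1, the multiplexin whose end fragment is endostatin, had 1121, 938, 1409 and 1168 CPM in the endocardial-like cluster. Col15a1, its relative, had 77.8, 59.1, 107.4 and 55.3 CPM in vascular-like cells, 2.27 times the mean of fibroblast-like cells, and the 2 ranges did not overlap.

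The 6 type IV genes sit in 3 divergent pairs. In the gene annotation (GENCODE M21, mouse build mm10) Col4a1 and Col4a2 overlap by 22 bases at their 5′ ends on chromosome 8, Col4a3 and Col4a4 start 71 bases apart on chromosome 1, and Col4a5 and Col4a6 start 1308 bases apart on chromosome X. The 71-base gap and the stretches before Col4a5 and Col4a6 are printed because these genes share a start region and differ in level, Col13a1 because it had the lowest p among the members in the endothelial genotype comparison, and Col3a1 because it had the most UMIs. All are promoter sequences from RefSeq on GRCm38.p6, written 5′ to 3′ on the gene's own strand and ending at the base before its start, or before the first annotated exon for Col4a5. Capitals mark a match to the words AGATAA, as well as AGATAG, and also TGATAA, as well as TGATAG, known to be bound by GATA factors, on either strand. The windows are chr1:82586850-82586920 (minus strand) for Col4a4, chrX:141475169-141475384 (plus) for Col4a5, chrX:141474077-141474326 (minus) for Col4a6, chr10:61979109-61979358 (minus) for Col13a1 and chr1:45311288-45311537 (plus) for Col3a1.
Col4a4: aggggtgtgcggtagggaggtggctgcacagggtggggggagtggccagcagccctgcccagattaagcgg
Col4a5: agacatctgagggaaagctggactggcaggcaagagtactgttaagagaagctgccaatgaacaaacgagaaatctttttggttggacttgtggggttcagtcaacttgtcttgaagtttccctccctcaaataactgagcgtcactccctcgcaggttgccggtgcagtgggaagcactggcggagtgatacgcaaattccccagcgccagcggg
Col4a6: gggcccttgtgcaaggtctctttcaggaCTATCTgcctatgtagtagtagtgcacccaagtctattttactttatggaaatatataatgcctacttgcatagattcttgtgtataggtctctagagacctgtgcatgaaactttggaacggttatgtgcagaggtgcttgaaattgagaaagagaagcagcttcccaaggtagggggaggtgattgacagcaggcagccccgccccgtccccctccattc
Col13a1: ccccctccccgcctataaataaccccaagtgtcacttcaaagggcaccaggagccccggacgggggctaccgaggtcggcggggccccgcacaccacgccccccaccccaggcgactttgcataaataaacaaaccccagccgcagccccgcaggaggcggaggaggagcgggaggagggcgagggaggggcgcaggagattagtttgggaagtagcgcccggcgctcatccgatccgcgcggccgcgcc
Col3a1: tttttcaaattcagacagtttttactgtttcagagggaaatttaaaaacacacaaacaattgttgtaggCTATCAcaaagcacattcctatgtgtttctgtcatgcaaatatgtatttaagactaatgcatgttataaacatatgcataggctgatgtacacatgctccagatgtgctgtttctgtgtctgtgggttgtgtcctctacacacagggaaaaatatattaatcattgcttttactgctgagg

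Such words were found in the 250 bases upstream of 8718 of 32851 promoters in the RefSeq table (26.5%), and in 5 of the 36 promoters of members (13.9%). Entries were found for 33 of the 42 members, and the 5 genes were Col3a1, Col27a1, Col11a2 (with 2), Col17a1 and Col4a6. The match of Col3a1 ends 176 bases before its start and that of Col4a6 ends 217 bases before, and the printed windows of Col13a1, Col4a4 and Col4a5 hold none. A match is a string of letters and not a measured site. The Col13a1 window has a GC content of 68.8%, the Col4a4 gap 69.0%, the Col4a5 window 52.3%, the Col4a6 window 47.6% and the Col3a1 window 35.2%.

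Type VI chains and FACITs separated the 2 kinds of mesenchyme. Col6a1, which encodes a short chain of the beaded filament, had levels of 446.7, 427.3, 577.8 and 413.3 CPM in fibroblast-like cells, 1.91 times the cushion mean. Col6a3, the long chain that completes the type VI molecule, went the other way, with 176.7, 129.0, 221.4 and 162.4 CPM in cushion cells, 3.02 times the fibroblast-like mean. The ratio of Col6a3 to Col6a1 UMIs was 0.635 to 0.823 in cushion cells and 0.110 to 0.133 in fibroblast-like cells. In the endocardial-like cluster it was 1.98 to 6.38, with Col6a3 at 19.4, 21.8, 33.7 and 46.7 CPM. Col6a1 there was at 5.50 to 9.79 CPM, close to its 3.96 to 8.72 in erythroid-like cells, so the ratio rests on a low Col6a1 level. In the Wnt4 cluster the ratio was 0.0959 to 0.242, with Col6a3 at 11.1, 2.62, 9.67 and 9.80. Col6a2 lies 85161 bases from Col6a1 on the same strand of chromosome 10 and had 263.4, 249.7, 327.7 and 233.2 CPM in fibroblast-like cells. Its ratio to Col6a1 was steady in both kinds of mesenchyme, with 1.61 to 1.77 Col6a1 UMIs for each Col6a2 UMI. Col9a1 and Col9a3, the type IX chains known from cartilage, were the most cell-type-restricted members by level: Col9a1 had 253.2, 222.9, 255.5 and 205.6 CPM in cushion cells, 42.9 times the next type. Col9a3 had 176.1, 193.3, 173.8 and 162.3 CPM, 18.5 times the next type. Col14a1, a FACIT of loose connective tissue, marked the fibroblast-like cells with 331.2, 327.4, 350.7 and 309.5 CPM, 5.36 times the next type, the endocardial-like cluster.

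Of the 4 transmembrane collagens, 3 had their highest level in the endocardial-like cluster, and Col17a1, at 1.31 CPM, had it in epicardial-like cells with ranges that overlapped. Col23a1 had levels of 293.6, 278.5, 308.3 and 347.2 CPM in the endocardial-like cluster, 4.79 times the Wnt4 cluster, and Col25a1 had 22.4, 16.3, 18.7 and 16.3 CPM, 2.75 times. Col13a1, a surface collagen known from neuromuscular junctions, had 171.2, 145.1, 93.0 and 76.2 CPM there against 58.5, 62.7, 66.4 and 57.2 in cushion cells. All 4 endocardial-like values lay above the cushion values, though the 2 KO libraries came closer than the 2 het libraries. Of the remaining members, Col16a1 (a FACIT), Col8a2 and Col8a1 (network collagens) and Col6a6 led in epicardial-like cells with means of 117.9, 27.95, 20.5 and 70.2 CPM, and Col26a1 led in fibroblast-like cells with a mean of 76.6. Col12a1, a FACIT of stressed tissue, had a mean of 39.4 CPM in cushion cells and 19.3 in cardiomyocyte-like cells, and erythroid-like cells had 1.18. The other scarce members (Col5a3, Col6a4, Col6a5, Col7a1, Col11a2, Col17a1, Col19a1, Col20a1, Col22a1 and Col24a1) had their highest mean between 0.418 and 3.56 CPM. Of the last 3 members not yet given, Col11a1 had a highest mean of 110.2 and Col27a1 of 39.7 in epicardial-like cells, and Col9a2 of 58.1 CPM in cushion cells.

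The genotype comparison in endothelial-like cells, where the Cre acts, was made on UMIs summed per library. Of the 42 members 35 passed the filter on low counts and 7 did not. None of the 35 and none of the 15913 genes tested (0.0%) passed an adjusted p of 0.05 by edgeR's quasi-likelihood test with Benjamini-Hochberg adjustment. With DESeq2, 1 of the 35 (Col6a3) and 37 of 15913 genes (0.233%) passed. At an unadjusted p under 0.05 the edgeR test gave 6 members higher and 2 lower in the KO libraries, against 616 of all genes (3.87%, made up of 1.89% higher and 1.98% lower). Both KO libraries lay above both het libraries for 12 members and below for 3, against 13.9% and 13.8% of all genes. The median log2 difference was 0.11 over the 35 and 0.00 over all genes.

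The 4 type IV chains outside the Col4a3 and Col4a4 pair stood higher in the KO libraries. Normalised Col4a1 was 1604 and 1683 CPM in het libraries 1 and 2 and 2566 and 2261 in KO libraries 1 and 2. Normalised Col4a2 was 703.5 and 777.9 against 1147 and 1068 CPM. The KO libraries were above the het libraries for both genes, by 0.55 (SE 0.20) and 0.58 (SE 0.18) on the log2 scale, with edgeR adjusted p of 0.9997 for each. The X-linked pair did the same: normalised Col4a5 was 46.5 and 41.1 against 66.7 and 60.5 CPM, a log2 difference of 0.54 (SE 0.14). Normalised Col4a6 was 2.68 and 2.62 against 5.96 and 4.98 CPM, a log2 difference of 1.05 (SE 0.24). Of the pair on chromosome 1, Col4a3 was not tested and Col4a4 was at or below 0.5752 normalised CPM in each library. The median log2 difference over the 5 type IV chains tested was 0.55. Col18a1, the other basement membrane member, had 788.2 and 818.6 against 1106 and 1073 normalised CPM, a log2 difference of 0.44 (SE 0.18), also with an adjusted p of 0.9997 by edgeR.

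The makeup of the class differed between the genotypes beside these values. The Wnt4 cluster, in which both are low, held 47.9% and 27.4% of endothelial-like cells in the het libraries and 19.1% and 14.8% in the KO libraries, while the endocardial-like cluster held 22.8% and 41.05% against 45.65% and 47.4%. Without the Wnt4 cluster the log2 differences of Col4a1 and Col4a2 were 0.33 (SE 0.22) and 0.35 (SE 0.19). Within the endocardial-like cluster alone they were 0.26 (SE 0.24) and 0.28 (SE 0.21), and within the Wnt4 cluster alone 0.68 (SE 0.18) and 0.75 (SE 0.17). Col4a6 was 1.504 (SE 0.35) in the endocardial-like cluster and 0.43 (SE 0.35) in the Wnt4 cluster. The libraries also differed in sex-linked transcripts, which bears on the X-linked Col4a5 and Col4a6: Xist had levels of 763, 251, 777 and 1031 CPM in endothelial-like cells, and the Y-linked Ddx3y had 56.8, 79.8, 49.4 and 0 CPM, its 0 UMIs in KO library 2 allowing up to 0.149 CPM. The part of sex in the result was not tested.

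**Figure D3:**
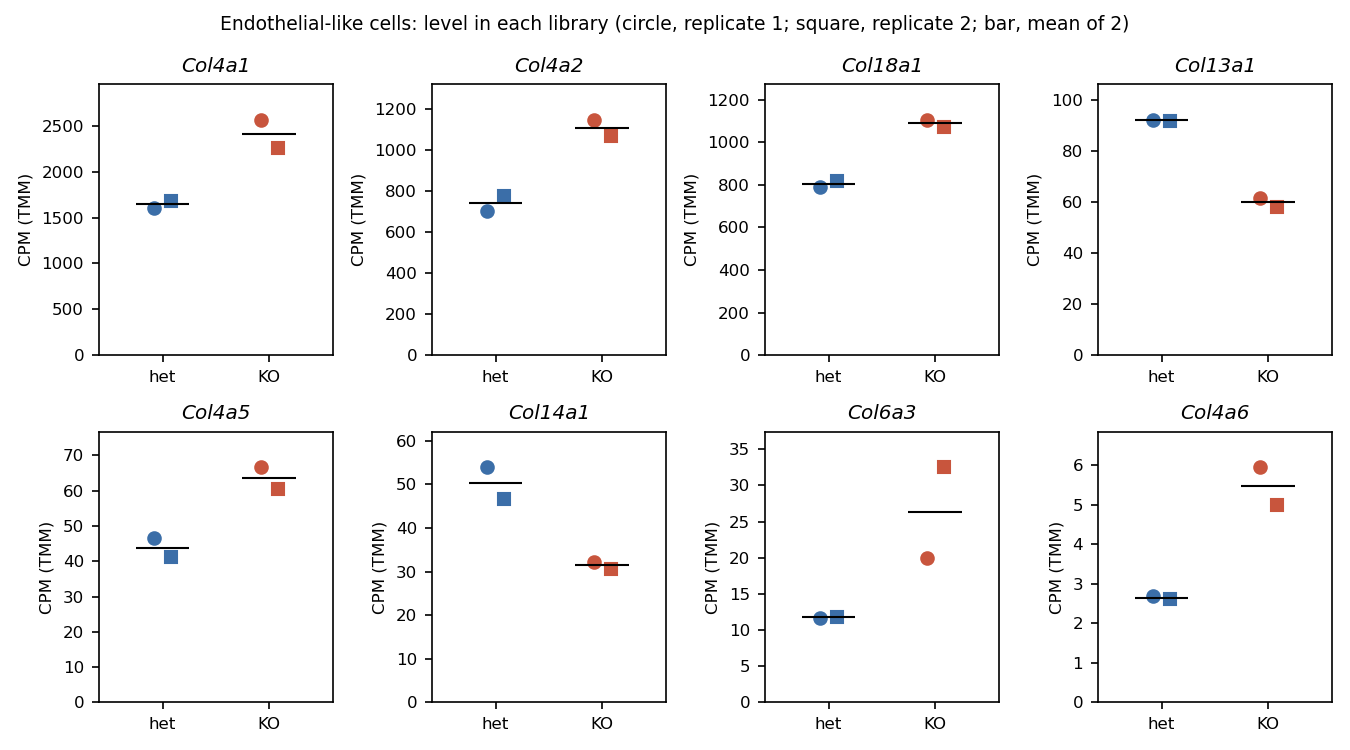
Normalised level (CPM, linear axis) of 8 collagen chain genes in endothelial-like cells, with a point for each het and KO library. The 2 KO libraries lie above the 2 het libraries for Col4a1, Col4a2, Col4a5, Col4a6, Col6a3 and Col18a1 and below them for Col13a1 and Col14a1, and none of the 8 passed the adjusted threshold with edgeR.

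Col13a1 and Col14a1 stood lower in the KO libraries. Normalised Col13a1 was 92.4 and 92.0 CPM in the het libraries and 61.8 and 58.1 in the KO libraries, a log2 difference of -0.62 (SE 0.13, edgeR adjusted p = 0.8307). Normalised Col14a1 was 54.0 and 46.8 CPM against 32.3 and 30.6, a log2 difference of -0.68 (SE 0.14, edgeR adjusted p = 0.8307). In both genes the 2 libraries of a genotype were closer to each other than to either library of the other. The differences had the same sign in the 3 clusters fitted alone (the low-UMI cluster was not): Col13a1 was -0.89 (SE 0.16) in the endocardial-like cluster, -0.47 (SE 0.23) in the Wnt4 cluster and -1.65 (SE 0.53) in vascular-like cells. Col14a1 was -0.88 (SE 0.16), -0.67 (SE 0.32) and -0.69 (SE 0.28). Without the Wnt4 cluster they were -0.76 and -0.77.

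Col6a3 had the largest log2 difference among the members named for this comparison. Its normalised level was 11.7 and 11.9 CPM in the het libraries and 20.0 and 32.5 in the KO libraries, a log2 difference of 1.16 (SE 0.25, edgeR adjusted p = 0.8326). The KO libraries were both higher but lay apart from each other. The DESeq2 adjusted p was 0.0284. With edgeR it passed when het library 1 (adjusted p = 0.00857), het library 2 (0.00529) or KO library 1 (8e-06) was left out, and not when KO library 2 was. Each of these fits has a single library in 1 genotype, which is assumed to vary like the pair of the other, so the calls are no support for the difference. It was 0.98 (SE 0.25) in the endocardial-like cluster and 0.58 (SE 0.60) in the Wnt4 cluster, and in vascular-like cells the value had the opposite sign, -0.26 (SE 0.84). Its partners differed less: normalised Col6a1 was 25.3 and 12.1 against 18.0 and 13.1 CPM and Col6a2 was 15.5 and 7.70 against 13.4 and 9.03, with overlapping groups. Col23a1 had 135.0 and 159.3 against 174.1 and 243.2 normalised CPM, a log2 difference of 0.50 (SE 0.21), but -0.03 (SE 0.19) in the Wnt4 cluster alone. The fibrillar chains had a median of 0.01 over 10 tested, with Col3a1 at 614.6 and 550.7 against 619.1 and 503.2 normalised CPM and Col5a2 at 597.8 and 333.9 against 456.3 and 316.1, and both overlapped.

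Markers of other cell types were present in the endothelial-like sums of each library. Marker shares in this text are of UMIs other than globin. A cluster was named endothelial-like only if cardiomyocyte markers were under 1% of these, so that share was limited in advance. The 12 cardiomyocyte markers all had UMIs and made up 0.609% and 0.2005% of UMIs in the het libraries and 0.2285% and 0.114% in the KO libraries, highest in het library 1. In the Wnt4 cluster alone the cardiomyocyte share ran from 0.175% to 0.986% across libraries, highest in het library 1. In the whole class, the 12 mesenchymal markers made up 0.107% and 0.0761% against 0.108% and 0.0853%. In mesenchymal-like cells they made up 0.485% to 0.574%. The 7 mural markers made up 0.00847% and 0.00617% against 0.0125% and 0.00881% of the endothelial-like sums. Their part in the collagen values was not tested. The share of UMIs other than globin taken by collagen chain genes was 0.532% and 0.464% against 0.706% and 0.567% in endothelial-like cells. The KO libraries were both higher, with a two-sided exact permutation p of 0.3333, the smallest that 2 against 2 libraries allow. Within the endocardial-like cluster all members together had 7538 and 5850 against 8500 and 6687 CPM. In the Wnt4 cluster they had 4159 and 3807 against 5388 and 4155, and the genotypes overlapped in both clusters. In vascular-like cells the levels were 4564 and 3540 against 6165 and 4667, without overlap. The part of the class makeup in this share was not tested.

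Genes that fold, process, bind and degrade collagen were read from lists of known genes. None of them passed the adjusted threshold in endothelial-like cells with edgeR. Of 19 folding and hydroxylation genes, 16 had a log2 difference above 0 and 3 an unadjusted p under 0.05, with a median of 0.13 against 0.00 over all genes, of which 3.87% had such a p. P3h3, a member of the prolyl 3-hydroxylase family, had 63.3 and 62.9 normalised CPM in the het libraries and 88.5 and 91.8 in the KO libraries (log2 difference 0.51, SE 0.13). P4ha1, a catalytic subunit of prolyl 4-hydroxylase, had 64.8 and 73.3 against 87.5 and 90.7. The KO libraries were higher for both genes. Of 10 propeptide removal and crosslinking genes, 9 were below 0 (median -0.28) and none had an unadjusted p under 0.05. Of 9 receptors, 6 were above 0 (median 0.26) and 2, Itga1 and Adgrg6, had an unadjusted p under 0.05. Itga1 had 71.4 and 90.9 against 97.9 and 133.9 normalised CPM (log2 difference 0.51, SE 0.21). Adgrg6, an adhesion receptor for type IV collagen, is also an endocardial marker in the naming list. It had 223.4 and 204.4 against 318.8 and 342.0 normalised CPM (log2 difference 0.63, SE 0.15). Its value was -0.84 in vascular-like cells alone. Of 10 fibril regulators, 5 were above 0 and 5 below (median -0.15). Lum, a small proteoglycan that binds fibrils, had 68.75 and 31.0 against 22.4 and 14.0 normalised CPM (log2 difference -1.45, SE 0.41), with a DESeq2 adjusted p of 0.0116 and an edgeR adjusted p of 0.9997. Of 8 breakdown genes, 2 were above 0 (median -0.07), and Mmp2, a gelatinase, had 144.2 and 142.3 against 188.6 and 187.9 (log2 difference 0.39, SE 0.14).

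In mesenchymal-like cells the genotypes were closer. Of the members 38 passed the filter, none of them and none of the 16902 genes tested (0.0%) passed the adjusted threshold by edgeR or by DESeq2, and 1 member, higher in the KO libraries, had an unadjusted p under 0.05, against 168 genes (0.994%, with 0.479% higher). That member was Col5a3, at 0.159 and 0.258 against 0.674 and 0.709 normalised CPM, too low to be read further. Both KO libraries lay above both het libraries for 4 members and below for 4, against 9.64% and 9.38% of all genes. The median log2 difference was 0.07 over the 38 and 0.00 over all genes. Of the members above 5 CPM with the lowest p, Col1a1 had 1163 and 1232 normalised CPM in the het libraries and 1281 and 1457 in the KO libraries (log2 difference 0.19, 95% interval -0.19 to 0.58). Col11a1, a fibrillar chain that sets fibril width, had 68.5 and 68.3 against 71.9 and 79.7. Col4a4 had 5.32 and 6.56 against 4.93 and 4.69, the only one of the 3 that was lower. Col6a3 had 117.8 and 101.4 against 147.1 and 111.1, Col4a2 had 339.8 and 256.8 against 377.5 and 308.0, and Col9a3 had 93.0 and 120.5 against 96.6 and 93.4, and the groups of these 3 overlapped. Of the collagen pathway lists, 1 gene had an unadjusted p under 0.05: Tnxb, a tenascin bound to fibrils, with 30.04 and 26.9 against 37.55 and 44.8 normalised CPM (log2 difference 0.54, SE 0.15). Its value was -0.13 in the cushion clusters alone.

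The difference between the 2 classes was tested as an interaction, with the library as a block. None of 39 members and none of 17441 genes (0.0%) passed the adjusted threshold by edgeR. With DESeq2, 1 member passed, Col14a1. At an unadjusted p under 0.05 there were 7 members of 39, against 841 of 17441 genes (4.82%). Col14a1 had the lowest p, with an endothelial minus mesenchymal log2 difference of -0.72 (SE 0.11, edgeR adjusted p = 0.1757, DESeq2 adjusted p = 0.0106). For Col13a1 it was -0.48 (SE 0.10, edgeR adjusted p = 0.3906), for Col4a5 0.44 (SE 0.11) and for Col4a6 1.12 (SE 0.28). It was 0.41 (SE 0.11) for Col18a1, 0.89 (SE 0.30) for Col6a3 and 0.72 (SE 0.23) for Col9a1. Col4a2, at 0.37 (SE 0.17), had an unadjusted edgeR p of 0.06006 and is not among the 7. In the members named here, the endothelial value was the larger in size. Col14a1 passed with edgeR when het library 1 was left out (adjusted p = 0.0111), and Col6a3 passed when KO library 1 was left out (0.017), again with a single library in 1 genotype.

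The reporter divides mesenchymal-like cells by whether the Cre acted in them or their forebears after tamoxifen at E9.5. Cells of endothelial descent in which it did not act stay unlabelled, so an unlabelled cell need not differ in descent. In cushion clusters of het library 2, for example, there were 235 labelled and 998 unlabelled cells. Labelled cells had at least 2 EGFP UMIs and more EGFP than dsRed, the red reporter, and unlabelled cells the reverse. EGFP reached 2072 to 3606 CPM in labelled and 39.5 to 99.2 in unlabelled cells, against 131.9 to 232.0 in erythroid-like cells. There were 107, 252, 186 and 81 labelled and 606, 1570, 1071 and 902 unlabelled cells in the 4 libraries, and both kinds from a library were compared within it. Mesenchymal-like cells that met neither rule were left out. Labelled cells had fewer UMIs, with medians of 6806, 14118, 11799 and 22053 per cell against 12533, 17250, 15047 and 27292 in unlabelled cells. The part of this depth difference in the results was not tested. Of the members 33 passed the filter and 23 passed an adjusted p of 0.05 by edgeR, 8 higher and 15 lower in labelled cells, against 14.8% of the 14383 genes tested (6.74% higher, 8.09% lower). At an unadjusted p under 0.05 there were 9 members higher and 16 lower, against 26.2% of genes. All 23 differed in the same direction in 4 of 4 libraries. The median log2 difference over the 33 was -0.15, and over all genes it was 0.00. Cushion clusters held 65.4%, 93.25%, 75.3% and 91.4% of labelled cells and 56.4%, 63.6%, 62.6% and 59.1% of unlabelled cells.

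The 8 members that were higher in labelled cells included type IX chains, Col18a1 and surface collagens. Normalised Col9a1 was 257.1, 234.2, 197.7 and 182.6 CPM in labelled cells of het 1, het 2, KO 1 and KO 2 and 123.6, 127.4, 142.5 and 110.9 in unlabelled cells, a log2 difference of 0.77 (SE 0.07, edgeR adjusted p = 3.16e-07). Normalised Col18a1 was 521.2, 550.3, 481.2 and 518.1 CPM against 320.4, 327.8, 386.9 and 309.3, a log2 difference of 0.63 (SE 0.06, edgeR adjusted p = 4.33e-07). Labelled and unlabelled values did not overlap for either gene. Normalised Col4a4 was 9.32, 16.1, 10.55 and 9.28 CPM against 4.21, 5.27, 4.87 and 4.32, a log2 difference of 1.31 (SE 0.18, edgeR adjusted p = 6.33e-05). The other 5 that were higher were Col23a1 (1.34), Col4a3 (1.05), Col9a3 (0.64), Col13a1 (0.46) and Col6a3 (0.35), with the log2 difference in brackets. Col4a3 lost its call in each fit that left out a library, and its adjusted p was then 0.0632 to 0.3968.

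The 15 members that were lower in labelled cells included 5 that had their highest level in fibroblast-like cells (Col14a1, Col6a1, Col6a2, Col26a1 and Col5a1) and 7 that had it in epicardial-like cells. Normalised Col14a1 was 41.2, 29.9, 67.2 and 46.4 CPM in labelled cells against 178.1, 157.1, 162.5 and 168.4 in unlabelled cells, a log2 difference of -1.87 (SE 0.12, edgeR adjusted p = 8.27e-09). Normalised Col15a1 was 10.1, 3.46, 12.9 and 4.88 CPM against 33.3, 18.5, 27.0 and 15.95, a log2 difference of -1.65 (SE 0.18, edgeR adjusted p = 3.79e-06). The groups did not overlap for either gene. Normalised Col1a1 was 838, 907, 1204 and 957 CPM against 1229, 1284, 1319 and 1508, a log2 difference of -0.46 (SE 0.06, edgeR adjusted p = 1.17e-05). Normalised Col4a1 was 480.1, 289.9, 516.8 and 439.5 CPM against 781.1, 515.8, 775.8 and 601.5, a log2 difference of -0.64 (SE 0.05, edgeR adjusted p = 5.63e-08), lower within each library though the 2 sets of values overlapped. The other 11 were Col8a2 (-1.76), Col8a1 (-1.16), Col4a2 (-0.65), Col6a2 (-0.59), Col6a1 (-0.59), Col26a1 (-0.53), Col1a2 (-0.42), Col5a1 (-0.40), Col4a5 (-0.32), Col3a1 (-0.29) and Col11a1 (-0.24). Col4a5 lost its call in each fit that left out a library (adjusted p 0.0710 to 0.1843), and Col11a1 did so without het library 2, KO library 1 or KO library 2 (0.0615 to 0.1018).

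Among cushion cells alone, 5 of 32 members passed, against 1.61% of 13212 genes. Col15a1 was lower in labelled cushion cells by a log2 difference of -1.64 (SE 0.24), Col4a2 by -0.38 (SE 0.06) and Col4a1 by -0.34 (SE 0.05), and Col4a4 was higher by 0.79 (SE 0.17) and Col13a1 by 0.38 (SE 0.08). Of the members that passed over all mesenchymal-like cells, Col14a1 had -0.12 (adjusted p = 0.8818 by edgeR) and Col9a1 0.18 (0.2303) there, and Col11a1, Col26a1 and Col4a5 had the opposite sign, 0.07, 0.15 and 0.07. The endothelial markers (11 of 11 with UMIs) made up 0.0421% to 0.04595% of UMIs in labelled and 0.0357% to 0.0446% in unlabelled cushion cells, against 0.559% to 0.591% in the endocardial-like cluster. Their part in these differences was not tested.

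**Figure D4:**
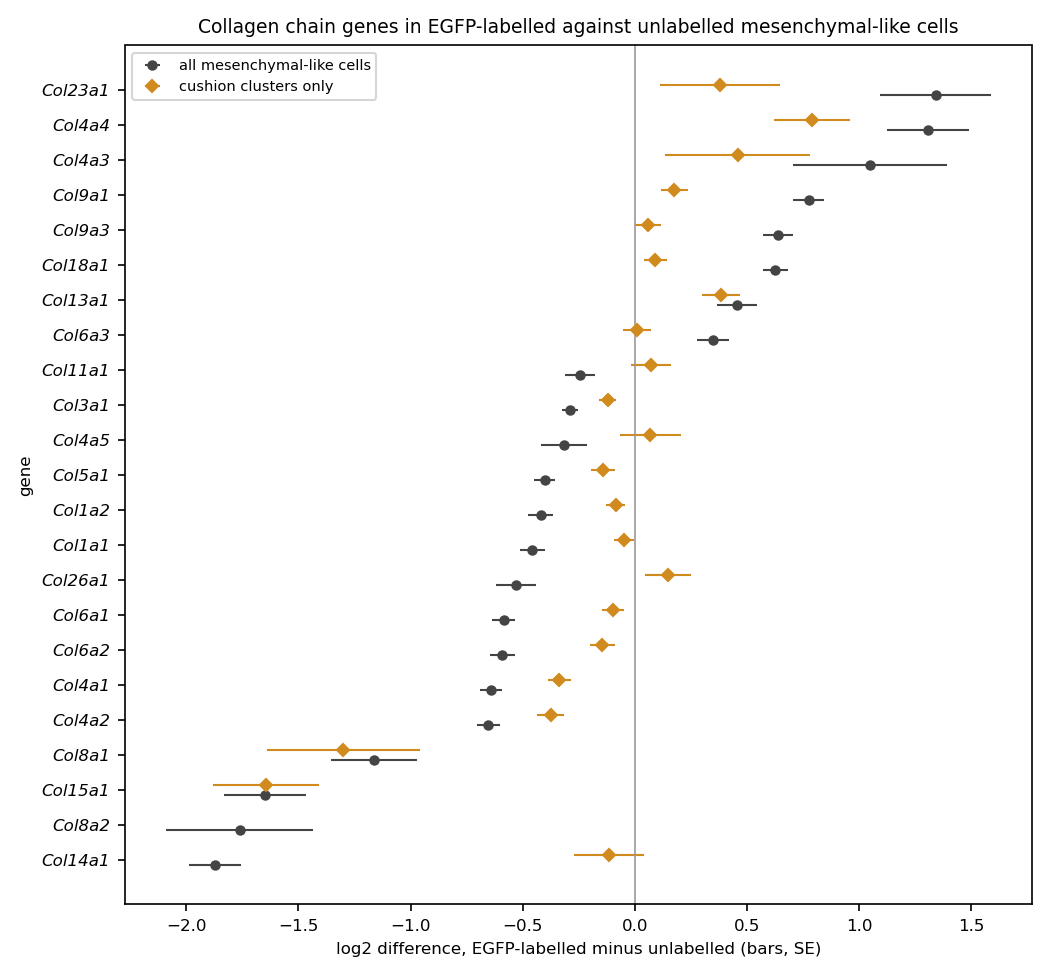
Log2 difference between labelled and unlabelled mesenchymal-like cells for the 23 collagen chain genes past the adjusted threshold, with all clusters in one color and cushion clusters alone in the other. Bars are the SE. Col14a1 is at -1.87 over all clusters and -0.12 in cushion clusters, Col15a1 is near -1.65 in both, and Col8a2 has no value in cushion clusters, where it was not fitted.

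The pathway lists were read in the same comparison, in which 6.74% of all genes passed as higher and 8.09% as lower. Of 19 folding and hydroxylation genes, 1 rose and 7 fell in labelled cells (median -0.10), with Serpinh1, the collagen chaperone, at -0.27 (SE 0.04) and P4ha1 at -0.55 (SE 0.07), and P4ha3 higher at 0.36 (SE 0.10). Of 10 propeptide removal and crosslinking genes, 1 rose and 4 fell (median -0.42), with Lox, a crosslinking oxidase, at -0.76 (SE 0.12) and Bmp1, the procollagen C-proteinase, at 0.31 (SE 0.06). Of 10 fibril regulators, 2 rose and 6 fell (median -0.29). Normalised Tnxb was 6.99, 3.71, 13.7 and 7.33 CPM in labelled cells against 33.9, 30.2, 41.35 and 47.05, a log2 difference of -2.31 (SE 0.17). Ogn was at -2.11 (SE 0.18) and Dcn at -0.99 (SE 0.07), while Lum was at 0.55 (SE 0.04) and Bgn at 0.34 (SE 0.04). Of 9 receptors, Itgb1 and Itga1 fell and none rose, and of 8 breakdown genes Ctsk and Timp2 rose and none fell.

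Labelled mesenchymal-like cells, in which the Cre had acted, were also compared by genotype. Of 30 members that passed the filter, none passed the adjusted threshold by edgeR, nor did any of 11337 genes (0.0%), while DESeq2 called 1 gene that is no member. At an unadjusted p under 0.05 there was 1 member, against 2.38% of genes. That was Col14a1, at 42.3 and 30.4 normalised CPM in the het libraries and 69.1 and 47.2 in the KO libraries (log2 difference 0.74, SE 0.24), and 0.28 (SE 0.40) in cushion cells alone. The 8 fibrillar chains tested all had values above 0, with a median of 0.31 against 0.00 over all genes. In all mesenchymal-like cells 8 of 11 had values above 0, with a median of 0.14. Some were highest in KO library 1 alone: Col3a1 had 1769 and 1801 against 2513 and 1883 normalised CPM in labelled cells. Col5a1 had 306.2 and 239.7 against 405.5 and 243.9. Col1a1 had 860.4 and 920.7 against 1237 and 973.4, and Col27a1 had 23.9 and 30.4 against 34.9 and 39.7. Both KO libraries were higher in each. Col9a1 had 263.9 and 237.7 against 203.2 and 185.7 and Col9a3 had 166.7 and 185.0 against 132.9 and 148.0, with both KO libraries lower. Col4a2 had 230.4 and 158.9 against 287.5 and 220.5, which overlapped. Groups without overlap were 8 members above and 4 below, against 14.0% and 13.2% of genes.

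In cardiomyocyte-like cells 33 members were tested, and neither a member nor any of 16580 genes (0.0%) passed the adjusted threshold by edgeR, nor did any member by DESeq2. At an unadjusted p under 0.05 there was 1 member, Col25a1 (lower in the KO libraries), against 1.75% of genes, with 1.19% lower. It had 0.798 and 0.8305 against 0.3105 and 0.162 normalised CPM. Of the 33, 29 had values below 0, with a median of -0.52 against -0.00 over all genes. These values moved with het library 1: normalised Col3a1 was 111.3 CPM there, 24.9 in het library 2 and 42.6 and 22.2 in the KO libraries, and Col5a2 was 50.4, 20.6, 26.4 and 17.0. Mesenchymal markers (12 of 12 with UMIs) made up 0.02235% of UMIs in het library 1 and 0.00744%, 0.00909% and 0.00629% in the others, and erythroid-like cells of het library 1 had the highest collagen level of the 4, at 501.9 CPM. Without het library 1 the log2 differences of Col3a1, Col5a2 and Col18a1 turned from -1.06, -0.70 and -0.71 to 0.38, 0.08 and 0.10, and without het library 2 these 3, lower in the KO libraries, were among 9 members that passed. Col4a1, with 175.1 and 170.6 against 150.2 and 131.7 normalised CPM, and Col4a2, with 95.6 and 106.6 against 85.3 and 77.1, did not overlap, at log2 differences of -0.29 (SE 0.16) and -0.32 (SE 0.15). Col2a1 had 11.65 and 23.9 against 11.3 and 13.6.

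In epicardial-like cells, with 81, 193, 327 and 145 cells, 34 members were tested and none passed by edgeR or DESeq2, nor did any of 13914 genes by edgeR (0.0%). At an unadjusted p under 0.05 there were 2 members, 1 higher and 1 lower, against 1.59% of genes (0.949% higher and 0.64% lower). Col8a1, a network collagen, had 15.2 and 17.5 against 26.95 and 22.1 normalised CPM (log2 difference 0.56, SE 0.22), and Col9a1 had 6.37 and 1.58 against 0.426 and 0.757. The Col9a1 values of het library 2 and both KO libraries lay below its erythroid-like mean of 1.81 CPM, so they are too low to be read further. Of the others of lowest p, Col14a1 had 24.5 and 16.5 against 24.4 and 30.1, Col4a3 7.83 and 4.31 against 7.56 and 8.47, Col6a1 53.4 and 36.7 against 40.9 and 29.05 and Col8a2 36.2 and 25.6 against 22.05 and 27.1. The groups of these 4 overlapped. Col26a1 had 58.75 and 57.95 against 47.6 and 52.5, both KO libraries lower. The collagen share of UMIs other than globin was 1.33% and 0.997% against 1.13% and 1.57% in epicardial-like cells. It was 0.862% and 0.802% against 1.002% and 0.8275% in mesenchymal-like cells, and 0.0850% and 0.0591% against 0.0581% and 0.04135% in cardiomyocyte-like cells. The exact permutation p was 0.6667, 0.6667 and 0.3333.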

How the data were processed

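Per the file headers, the deposited counts are UMI counts per gene and barcode made with Cell Ranger 6.0.1, and the submitters' processing notes name Cell Ranger, Seurat and the build mm10. The authors' filters on barcodes are not given in the sources used here, and the labels disagree on the kit version. Cells with at least 500 genes and under 20% mitochondrial UMIs were kept, and doublets called with Scrublet (in scanpy) were removed. Its automatic threshold called 0 and 2 doublets in het library 1 and KO library 2, so it was replaced there by 0.323, the median of the other thresholds, which removed 412 and 93 cells. They were clustered with scanpy 1.11.5 without collagen genes and named from markers. Counts were summed per library and cell class and tested with edgeR 4.0.16 (R 4.3.3; TMM, quasi-likelihood, Benjamini-Hochberg at 0.05; genes kept by filterByExpr, minimum count 10 and total 15), with the library as a block for labelled against unlabelled cells and for the interaction. All p-values were adjusted over every gene tested. DESeq2 1.42.0 was an alternative. Of the fits, 2 were tested on simulated data. The endothelial genotype fit called 5 of 82 genes given a 1.5-fold change (6.1%) in the right direction. At 2-fold it called 19 of 58 (32.8%) and at 4-fold 56 of 59 (94.9%), so a count of 0 does not show that no gene differs. For labelled against unlabelled cells these shares were 58.7%, 78.1% and 98.4%. Library totals ran from 137890971 to 190207638 UMIs. The limit for a count of 0 is 3 counts, and it covers counting error only.

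The members and lists were chosen with earlier results of these data known. Genes named in each comparison are the members past the adjusted threshold and the 6 of lowest p with a mean of at least 5 CPM, the most abundant members of each structural group, both genes of neighbouring pairs, and up to 4 genes of lowest p from each pathway list. Other members named with values (Col4a6, Col18a1 and Col23a1 in endothelial-like cells, for example) were chosen after their values were seen. Fits on single clusters were added after seeing the data.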

Additional observations from a re-analysis of the deposited data

How the results depend on the processing

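The endothelial count of members called, 0 with edgeR, was 1 with DESeq2, 3 with no filter on low counts, 9 with the replicate number as a block (543 of all genes, 3.41%) and 0 to 2 when a library was left out. Same-numbered libraries had correlated deviations (0.334 to 0.727 over the comparisons), but 2 pairs do not show that the numbers pair the samples, so the block is not used. In cardiomyocyte-like cells the count of 0 was 6 with no filter, 9 with the block and 0 to 9 when a library was left out, and in epicardial-like cells it was 1 with the block and 0 to 1. The interaction count of 0 was 1 with DESeq2, 8 with no filter and 0 to 2 without a library. The count of 23 for labelled cells was 5 in cushion clusters. The collagen share difference ran from -0.004718 to 0.1698 percentage points in mesenchymal-like and from -0.03568 to 0.401 in epicardial-like cells when a library was left out.

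Signs turned in vascular-like cells for Col6a3 (-0.264) and Adgrg6 (-0.842), in cushion clusters for Tnxb by genotype (-0.135) and for Col11a1 (0.072), Col26a1 (0.145) and Col4a5 (0.068) by label, and in fibroblast clusters for Col6a3 (-0.074) and Col9a3 (0.273). With a library left out, Col9a3 in mesenchymal-like cells ran from -0.349 to 0.032, and in cardiomyocyte-like cells Col18a1 ran from -1.231 to 0.098, Col2a1 from -0.939 to 0.108, Col3a1 from -1.771 to 0.38 and Col5a2 from -1.208 to 0.076. The cause was not tested. The design has 2 libraries per genotype, and a fit without a library has 1 in that genotype, which is assumed to vary like the other pair.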
